A study of Arabidopsis thaliana with 50 samples.

Results

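The nuclear genes of the photosynthetic antenna and of both photosystems were followed across 50 RNA-seq libraries of Arabidopsis seedlings. They were taken by name and locus: the photosystem I antenna genes LHCA1 to LHCA6, the photosystem II antenna family LHCB1 to LHCB7, and the nuclear genes for photosystem I (PSA) and photosystem II (PSB) subunits. In all 42 genes were followed of 37338 genes in the files: 6 LHCA genes, 9 genes for the trimer-forming LHCB proteins, 6 for the minor LHCB proteins, 12 PSA genes and 9 PSB genes. All 42 passed the filter on low counts in every comparison.

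The study asked what MED12 and MED13, the paired large subunits of the Mediator kinase module, do for gene expression in plants. The mutants were *med12* (*cct-2*, a T-DNA insertion) and *med13* (*gct-2*), with 4 libraries each, set against 4 of Col-0. A further group of lines carried the *SDC:GFP* transgene, a reporter of gene silencing: *ddc/med13* (a CRISPR deletion in MED13, 4 libraries) against *ddc* (the triple mutant *drm1/drm2/cmt3*, 4), *morc1/med13* (*gct-2* crossed into *morc1-4*, 4) against *morc1* (*morc1-4* replicates 1 to 4), *morc1/med12* (a CRISPR frameshift deletion in MED12, 3) against *morc1* (replicates 5 to 7), and *ddc* and *morc1* each against a wild type with the transgene (4). In the light experiment, Col-0 and *med12* seedlings were kept for 24 h in the dark and then sampled in the dark or after 15 min of light (3 libraries each). Whole seedlings aged 8 days were the material of every library, grown on plates with sucrose under long days apart from that dark period. Within a background each mutation was studied as 1 line, so line and genotype cannot be told apart. Because whole seedlings were used, a lower level of a gene may stand for fewer cells of a type or for less RNA per cell, and these cannot be told apart. The study's methods describe a replicate as an RNA extraction from several combined seedlings, and say that all plants were grown and harvested together, so the p-values below measure the spread between such pools.

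Light-harvesting proteins bind chlorophyll and pass the absorbed energy to the reaction centres. LHCA proteins form a belt along photosystem I. LHCB1, LHCB2 and LHCB3 form the trimers of the major photosystem II antenna, while CP29 (the LHCB4 proteins), CP26 (LHCB5) and CP24 (LHCB6) connect these trimers to the photosystem II core. The proteins are encoded in the nucleus and imported into the chloroplast, whereas the reaction centre proteins themselves are encoded by the plastid genome. In green tissue these transcripts are among the most abundant of all, and many of them are known to respond to light, sugars and the circadian clock. LHCB2 is best known for state transitions, in which its phosphorylation lets antenna trimers move from photosystem II to photosystem I.

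Libraries held 2767761 to 6786822 counts, a 2.45-fold range, and 0.387 to 0.83% of them fell on the 42 genes. MED12 averaged 62.2 CPM in *med12* and 166 CPM in Col-0 libraries (CPM, counts scaled to the library size after edgeR's TMM normalisation), and in the dark 64.3 CPM in *med12*, against 194 CPM in Col-0. CMT3, 1 of the 3 genes mutated in *ddc*, averaged 20.7 CPM in *ddc* and 77 CPM in *SDC:GFP* wild type, and MORC1 averaged 23.8 CPM in *morc1* and 35.2 CPM in *SDC:GFP* wild type. MED13 averaged 124 CPM in *med13* and 109 CPM in Col-0 libraries, so the *gct-2* label could not be checked from its level. Root markers (9 genes) summed to 414 to 839 CPM over the 50 libraries. Libraries of the same group in the dark and light experiment differed by less than sampling noise, with a chi-square per degree of freedom of 0.585 to 0.793 in their 12 pairs. They were fitted as separate libraries, as the methods describe them. Whether libraries this alike came from separate extractions was not tested, so p-values and intervals that rest on them may be too small. Over all 66 pairs of replicates the value ran up to 5.77.

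The results turn on the LHCB2 genes, so their sequences are shown. LHCB2.1 (AT2G05100, chr2:1822990-1824480) and LHCB2.2 (AT2G05070, chr2:1799234-1800472) lie on the minus strand of chromosome 2, and LHCB2.3 (AT3G27690, chr3:10255906-10257489) lies on the plus strand of chromosome 3 (RefSeq, TAIR10.1). In the second coding exon, 652 bases long in all 3 genes, LHCB2.1 and LHCB2.2 differed at 13 bases (98% identity), LHCB2.1 and LHCB2.3 at 88 (86.5%) and LHCB2.2 and LHCB2.3 at 94 (85.6%). The longest identical run of LHCB2.1 and LHCB2.2 there was 152 bases, of which 150 are printed (chr2:1823455-1823604 and chr2:1799442-1799591, minus strand) with the matching stretch of LHCB2.3 (chr3:10256766-10256915, plus strand). Capitals mark the 23 bases at which LHCB2.3 differed from the others.
LHCB2.1 and LHCB2.2: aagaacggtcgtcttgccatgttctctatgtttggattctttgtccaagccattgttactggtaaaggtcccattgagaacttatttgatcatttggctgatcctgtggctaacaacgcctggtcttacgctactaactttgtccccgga
LHCB2.3: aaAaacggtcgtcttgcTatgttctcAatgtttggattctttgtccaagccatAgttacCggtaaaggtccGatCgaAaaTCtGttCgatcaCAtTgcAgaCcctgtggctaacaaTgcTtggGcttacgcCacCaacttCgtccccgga
A 50-base read from this stretch cannot tell LHCB2.1 from LHCB2.2 but can tell either from LHCB2.3. Of all 50-base windows in the transcripts, 78.1% were unique in the genome for LHCB2.1, 71.8% for LHCB2.2 and 100% for LHCB2.3. The counts of LHCB2.1 and LHCB2.2 are therefore given with this uncertainty, and LHCB2.3 is free of it. Among the LHCB1 copies the unique share ran between 79.5% for LHCB1.1 and 89.4% for LHCB1.2.

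As the LHCB2 genes moved together, the 250 bases before their annotated starts are shown as well, with matches to 4 motifs of light and clock regulated promoters in capitals: the G-box (CACGTG), an element common in light-regulated promoters, the I-box (GATAAG), the CCAAT-box variant (CCAATC) and, for clock genes, the evening element (AAATATCT), with each searched on both strands. The printed windows are chr2:1824481-1824730 (minus strand), chr2:1800473-1800722 (minus strand) and chr3:10255656-10255905 (plus strand). No matches overlapped each other.
LHCB2.1: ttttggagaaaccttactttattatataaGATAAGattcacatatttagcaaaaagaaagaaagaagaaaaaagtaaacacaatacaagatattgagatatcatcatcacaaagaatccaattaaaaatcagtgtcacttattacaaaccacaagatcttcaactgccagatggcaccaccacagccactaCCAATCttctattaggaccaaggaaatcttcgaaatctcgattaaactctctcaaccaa
LHCB2.2: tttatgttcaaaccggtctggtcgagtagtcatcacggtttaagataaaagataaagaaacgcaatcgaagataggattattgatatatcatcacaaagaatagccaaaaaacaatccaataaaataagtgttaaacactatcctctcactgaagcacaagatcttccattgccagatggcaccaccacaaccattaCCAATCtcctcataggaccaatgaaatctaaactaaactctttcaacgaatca
LHCB2.3: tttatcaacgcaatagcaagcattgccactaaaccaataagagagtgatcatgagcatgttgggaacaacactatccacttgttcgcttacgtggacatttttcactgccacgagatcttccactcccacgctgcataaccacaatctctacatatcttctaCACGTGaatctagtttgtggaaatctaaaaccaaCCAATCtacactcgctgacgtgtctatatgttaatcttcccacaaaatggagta
All 3 windows held CCAATC, with its last base at position -54 from the start of LHCB2.1, -48 from that of LHCB2.2 and -49 from that of LHCB2.3. LHCB2.1 also held an I-box and LHCB2.3 a G-box. Over the 42 genes, CCAATC was found in the windows of 11 (26.2%, against 10.2% of 27443 promoters), the G-box in 9 (21.4%, against 6.49%), the I-box in 9 (21.4%, against 12.3%) and the evening element in 1, LHCA5 (2.38%, against 4.79%). The windows of LHCA6 and LHCB4.3, which also differed between groups below, held no match. These matches describe the letters of the windows only.

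Most of the 42 genes had nearly the same count in every library, whatever its depth. The counts of 35 genes differed by 1.09- to 1.48-fold between the lowest and highest of the 50 libraries, with a median of 1.21-fold, and their summed counts per exonic base ran only between 0.539 and 0.637. LHCB1.5, for example, had 719 to 783 counts and PSBO1, the manganese-stabilising subunit of the oxygen-evolving complex, had 953 to 1078. Duplicate removal on reads sequenced from a single end retains at most 1 of those that share a start and a strand. None of the 35590 genes with a known exonic length of 200 bases or more exceeded 0.909 counts per exonic base in any library. Of the 166 genes in the files of 200 bases or more with a mean of at least 0.5 counts per base over the libraries, 31 were among the 42, and the median count range of those 166 genes was 1.52-fold. The 8203 genes at 0.05 to 0.15 counts per base had a median range of 4.46-fold. For these 35 genes a difference in RNA level would appear in the counts only in part, and a CPM value falls as the library grows.

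**Figure D1:**
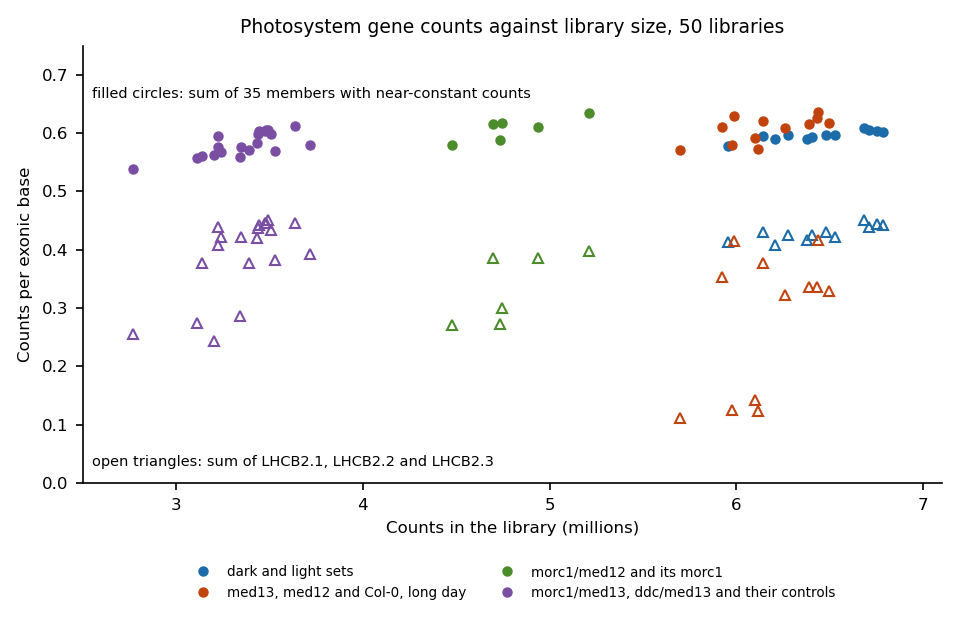
Counts per exonic base (vertical) against total counts of the library (horizontal) in 50 libraries, coloured by the sets that were fitted together. Filled circles, the sum of the 35 genes with near-constant counts, stay between 0.539 and 0.637 at every depth, and open triangles, the sum of LHCB2.1, LHCB2.2 and LHCB2.3, are lowest in the 4 long-day Col-0 libraries.

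The near-constant genes came from every class. They held the core antenna genes of photosystem I, LHCA1 to LHCA4 (lowest to highest count up to 1.2-fold apart), all 5 LHCB1 copies (1.09- to 1.37-fold), LHCB3 (1.22-fold) and the CP29, CP26 and CP24 genes LHCB4.1 (1.19-fold), LHCB4.2 (1.45-fold), LHCB5 (1.16-fold) and LHCB6 (1.27-fold). All 12 PSA genes (1.14- to 1.48-fold) and all 9 PSB genes (1.13- to 1.3-fold) were among them. Per exonic base, PSAG stood highest, with a median of 0.755 counts over the libraries, followed by LHCB1.5 (0.72) and LHCA4 (0.717). PSAH1, a subunit at the docking site of the mobile antenna on photosystem I, stood lowest of the 35 at 0.362. Of the photosystem II genes, PSBO1 had a median of 0.689 counts per base, PSBR 0.647 and PSBP1, which like PSBO1 belongs to the oxygen-evolving complex, 0.64.

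The other 7 genes were LHCA5, LHCA6, LHCB2.1, LHCB2.2, LHCB2.3, LHCB4.3 and LHCB7, whose counts differed by 1.96- to 8.61-fold between libraries. LHCB4.3 had 33 to 284 counts, LHCA6 91 to 448, LHCB7 69 to 175 and LHCA5 256 to 501. LHCA5 (AT1G45474) and LHCA6 (AT1G19150) are minor photosystem I antenna proteins that join photosystem I to the NDH complex of cyclic electron flow. LHCB4.3 (AT2G40100), also called LHCB8, is a form of CP29, and LHCB7 (AT1G76570) is a little-studied member of the family. The boundary between these 7 and the other 35 was set after the counts were seen, at a 1.5-fold range, with PSAD2 (1.48-fold) just inside and LHCA5 (1.96-fold) just outside. All 7 were called in at least 1 of 16 comparisons, and 7 of the 16 comparisons had a called member. Here called means more than 1.5-fold with an adjusted p under 0.05 in edgeR's quasi-likelihood test over all features. As the 35 were set apart by a count range under the same 1.5-fold, they could hardly be called between libraries of similar depth, and nothing is read from the absence of calls among them. The 7 were set apart by a wider range in the same libraries, so nothing is read from all 7 being called.

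**Figure D2:**
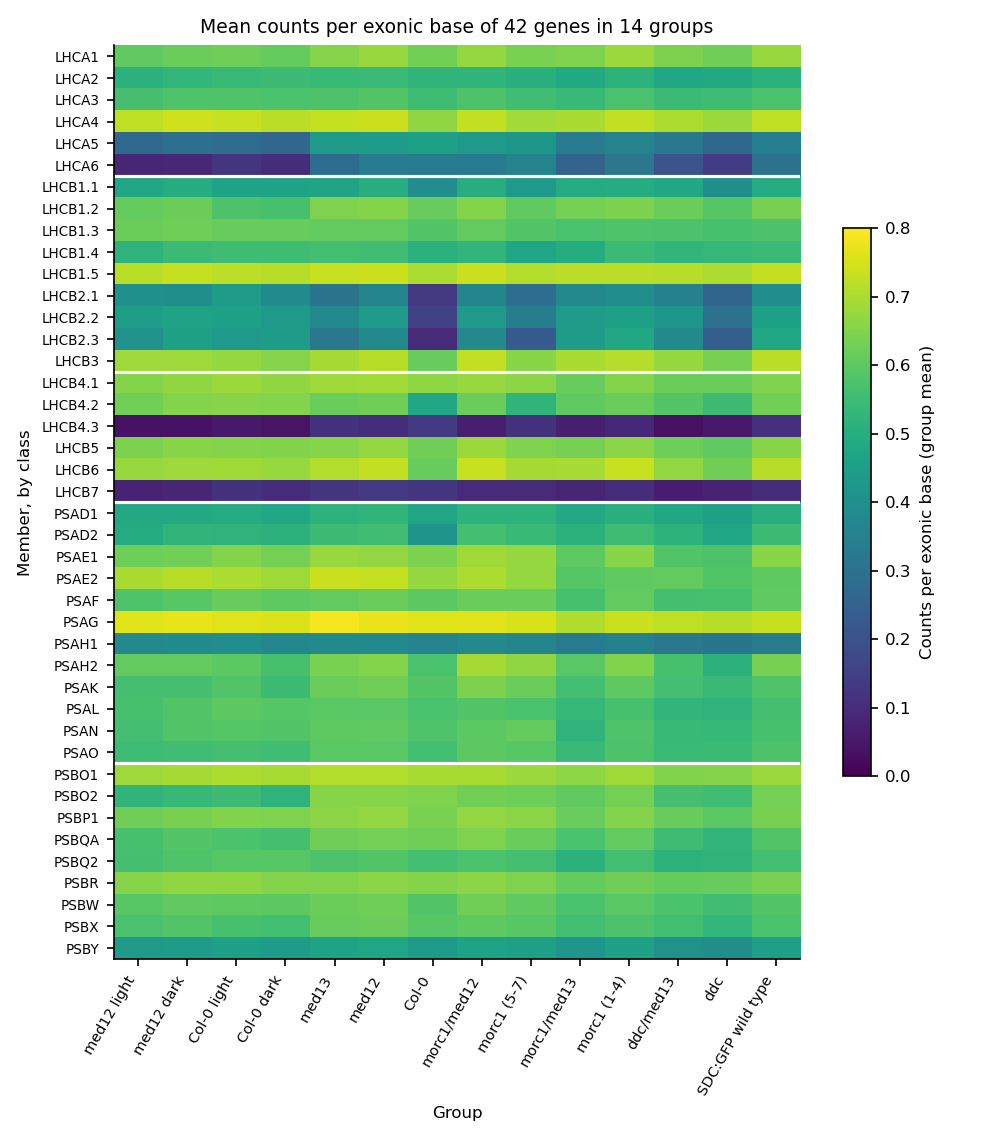
Mean counts per exonic base of each of the 42 genes (rows, by class) in each of 14 groups (columns). Most rows keep the same colour across the groups, while LHCA5 and LHCA6 are darkest in the dark and light groups and in *ddc*, and the LHCB2 rows are darkest in Col-0. The values are not scaled for library size.

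In long-day Col-0 the highest levels per length were those of PSAG, a photosystem I subunit (124 ± 4.99 CPM per kilobase, SD, n = 4), LHCB1.5 (114 ± 5.21) and PSBO1 (114 ± 5.18). LHCB2.3 was lowest at 15.6 CPM per kilobase, followed by LHCB7, LHCB2.1 (21.9), LHCB4.3 (22.2) and LHCB2.2 (25.0). Of 41 pairs of neighbours in this order, 38 had overlapping library ranges. Given the limit on counts per base, the order of the upper levels is an order of what was left after duplicate removal.

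The first comparison set *med12* against Col-0 in long days. All 3 LHCB2 genes were higher in *med12*, by 2.65- to 3.95-fold, and no other gene of the 42 passed 1.5-fold. These 4 Col-0 libraries were the lowest of all 50 for the LHCB2 genes, as described below. LHCB2.3 had 126 to 155 counts in them, against 293 to 720 in the other 46. LHCB2.3 had 100, 90, 86.2 and 81 CPM in *med12*, against 21.7, 21.5, 23.4 and 24.8 CPM in Col-0. LHCB2.1 had 86.5, 80, 79 and 77.7 CPM in *med12*, against 28.4, 28.7, 30.6 and 35.6 CPM in Col-0, and LHCB2.2 had 84.2, 78.1, 77.1 and 74.6 CPM in *med12*, against 27, 28.4, 27.8 and 31.1 CPM in Col-0. The lowest *med12* library was thus more than 2-fold above the highest Col-0 library for each gene. The log2 fold changes were 1.98 ± 0.07 for LHCB2.3 (SE, adjusted p = 5.2e-10), 1.4 ± 0.06 for LHCB2.1 (3.6e-09) and 1.47 ± 0.05 for LHCB2.2 (4e-10). Of the 42 genes, 3 were called higher and 0 lower, where 7.66% of all features tested were called higher and 5.12% lower. The median log2 fold change of the 42 was 0.07, and that of all features 0.00.

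A further 8 genes were higher in *med12* at an adjusted p under 0.05 without reaching 1.5-fold, a threshold at which no share of all features is given. They included PSAD2 (AT1G03130), which docks ferredoxin on photosystem I (log2 fold change 0.40), LHCB4.2 (AT3G08940), a CP29 gene (0.38), LHCB1.1 (AT1G29920, 0.32), LHCB6, which encodes CP24 (0.22), and LHCB3 (0.19). All 5 were among the genes with near-constant counts. When counts were converted to the number of reads expected without loss at taken start positions, LHCB4.2 passed 1.5-fold, at 0.59. The other 4 LHCB1 copies, at 0.03 to 0.09, were not called different, and the sum of all 5 LHCB1 copies was 0.10 (adjusted p = 0.02).

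In *med13* the same 3 genes were called, again out of 42. LHCB2.3 had 70.2, 68.1, 72.2 and 69.9 CPM in *med13*, against 21.7, 21.5, 23.4 and 24.8 CPM in Col-0. LHCB2.1 stood at 65.6, 63.9, 65 and 65.7 CPM in *med13* and LHCB2.2 at 64.7, 64.6, 65.6 and 66.6 CPM, with the Col-0 values as above. The *med13* libraries lay closer together than those of *med12*, and no *med13* library overlapped Col-0. The log2 fold changes were 1.63 ± 0.07 for LHCB2.3 (adjusted p = 4.6e-09), 1.09 ± 0.06 for LHCB2.1 (3.6e-08) and 1.21 ± 0.05 for LHCB2.2 (3.3e-09). The 3 genes called higher and 0 called lower stand beside 7.16 and 6.27% of all features. The median of the 42 was -0.03, and that of all features 0.01. The comparisons of *med12* and *med13* share the 4 Col-0 libraries, so their likeness is not independent. Both rest on the low LHCB2 values of those 4 libraries, described below.

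Below 1.5-fold, PSAD2 (0.31), LHCB4.2 (0.28), LHCB1.1 (0.16) and LHCB6 (0.11) were higher in *med13* at an adjusted p under 0.05, while LHCA6 (-0.31, adjusted p = 0.00023) and LHCA5 (-0.15, 0.0082) were lower. LHCA6 had 47.3, 53, 51.3 and 46.2 CPM in *med13*, against 62.5, 58.8, 65.7 and 61.5 CPM in Col-0, so that every *med13* library was below every Col-0 library. Set directly against each other, *med13* and *med12* differed at no gene by the call (0 of 42, where 5.06% of all features were called). Of the 42 genes, 13 were lower in *med13* than in *med12* at an adjusted p under 0.05 and 0 were higher, with a median of -0.09. No share of all features at that threshold is given, so nothing is read from the 13. The median library held 6409961 counts in *med13*, against 6064267 in *med12*. For genes with near-constant counts a larger library alone lowers the CPM, and the part of depth was not tested. The summed LHCB2 copies were lower in *med13* by 0.31 on the log2 scale (adjusted p = 0.00041), under the 1.5-fold limit.

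**Figure D3:**
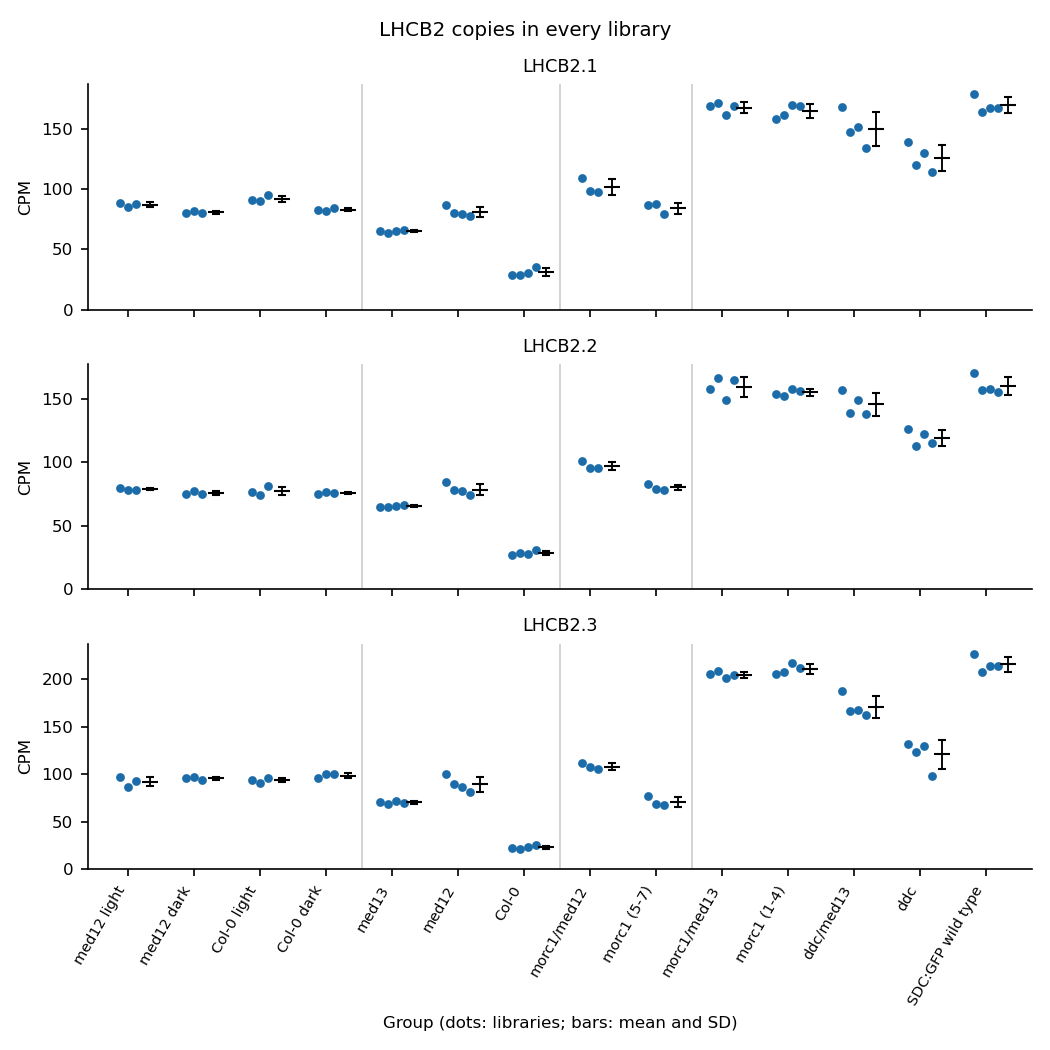
CPM of LHCB2.1, LHCB2.2 and LHCB2.3 (vertical) in each library (dots) of 14 groups, with mean and SD (bars); grey lines separate the sets fitted together. The 4 Col-0 libraries of the long-day set, at 21.5 to 35.6 CPM, lie below all other dots in each panel.

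The low values of the LHCB2 genes were a feature of the 4 long-day Col-0 libraries among all 50. In counts, LHCB2.3 had 293 to 720 in the other 46 libraries, against 126 to 155 in these 4. LHCB2.1 had 341 to 629 in the other 46, against 165 to 222, and LHCB2.2 had 325 to 536, against 157 to 194. PSAD2 was set apart in the same way, with 441 to 569 counts in the other 46 libraries, against 385 to 420 in the 4. LHCB1.1 and LHCB4.2 were lower in these 4 than in the other 46 in CPM but not in counts. None of the other 38 genes was lowest in these 4 libraries in both counts and CPM. The other 46 libraries include 3 of Col-0 in the dark, 3 of Col-0 after light and 4 of *SDC:GFP* wild type. *SDC:GFP* wild type, which has neither mediator mutation, had 227, 208, 214 and 214 CPM of LHCB2.3. As the *SDC:GFP* wild type libraries held 3222705 to 3492942 counts and those of Col-0 5696151 to 6116629, and the sets were fitted separately, no fold is given between them. Whether the low values belong to the condition, to the plants sampled or to these libraries was not tested.

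The comparison of Col-0 after 24 h in the dark with Col-0 in long days gave the most calls of the 16, namely 6, although dark and long-day libraries are separate sets, so that set and condition cannot be told apart. The LHCB2 genes were higher and LHCA6, LHCB4.3 and LHCA5 lower in the dark. LHCB2.3 had 95.6, 99.7 and 100 CPM in dark Col-0, against 21.7, 21.5, 23.4 and 24.8 CPM in long days. The log2 fold changes were 2.11 ± 0.07 for LHCB2.3 (adjusted p = 2.5e-13), 1.43 ± 0.06 for LHCB2.1 (2.6e-12) and 1.41 ± 0.05 for LHCB2.2 (7.2e-13). These rest on the same 4 long-day Col-0 libraries as the comparisons of *med12* and *med13* with Col-0.

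The 3 genes called lower in the dark were both NDH-linked LHCA genes and LHCB4.3, which was the only 1 of the 6 minor LHCB genes to be called. LHCA6 had 17.8, 19.1 and 19.5 CPM in dark Col-0, against 62.5, 58.8, 65.7 and 61.5 CPM in long days (log2 fold change -1.72 ± 0.06, adjusted p = 6.4e-13). LHCB4.3 had 10.5, 9.48 and 9.15 CPM in the dark, against 29.3, 26, 33.3 and 39.7 CPM in long days (-1.72 ± 0.19, 8.3e-07). LHCA5 had 44.4, 41.7 and 43.6 CPM in the dark, against 81.8, 74.5, 80 and 80.3 CPM in long days (-0.86 ± 0.05, 8.2e-11). No dark library overlapped a long-day library for any of the 3. In all, 3 of 42 genes were called higher and 3 lower, where 10.0% of all features were called higher and 10.4% lower. Of the near-constant genes, PSBO2 (AT3G50820), the second manganese-stabilising protein gene, was lower by 0.39 and LHCB4.2 higher by 0.37, both under 1.5-fold. Converted for taken start positions, these became -0.60 and 0.61, past 1.5-fold.

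In *med12*, LHCA5, LHCA6 and LHCB4.3 were again lower in the dark, as was LHCB7, which made 2 of the 6 minor LHCB genes called. The LHCB2 genes were not called. LHCA6 had 13.8, 16.6 and 16.1 CPM in *med12* in the dark, against 63, 61.7, 59.2 and 62.7 CPM in *med12* in long days (-2.0 ± 0.06, adjusted p = 1.4e-13). LHCB4.3 had 8.12, 10.4 and 6.87 CPM in the dark, against 23.5, 17.3, 31.5 and 23.4 CPM in long days (-1.51, 7.4e-06). The values of both genes in the dark lay far under the lowest long-day library, as in Col-0. LHCA5 was lower by 0.75 (3.8e-10). LHCB7 had 15.8, 14.4 and 14.6 CPM in the dark, against 26.2, 25.9, 26.9 and 26 CPM in long days (-0.82, 7.6e-07). The counts of 0 called higher and 4 called lower of 42 stand beside 8.15 and 11.0% of all features. The median showed a shift of small size, at -0.20 against -0.01 for all features, and 39 of 42 genes were lower in the dark at an adjusted p under 0.05. No share of all features at that threshold is given, so nothing is read from the 39. The median library of these groups held 6707479 counts in the dark, against 6064267 in long days, and the part of depth in this shift was not tested. PSBO2 passed 1.5-fold after conversion for taken start positions, at -0.65.

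**Figure D4:**
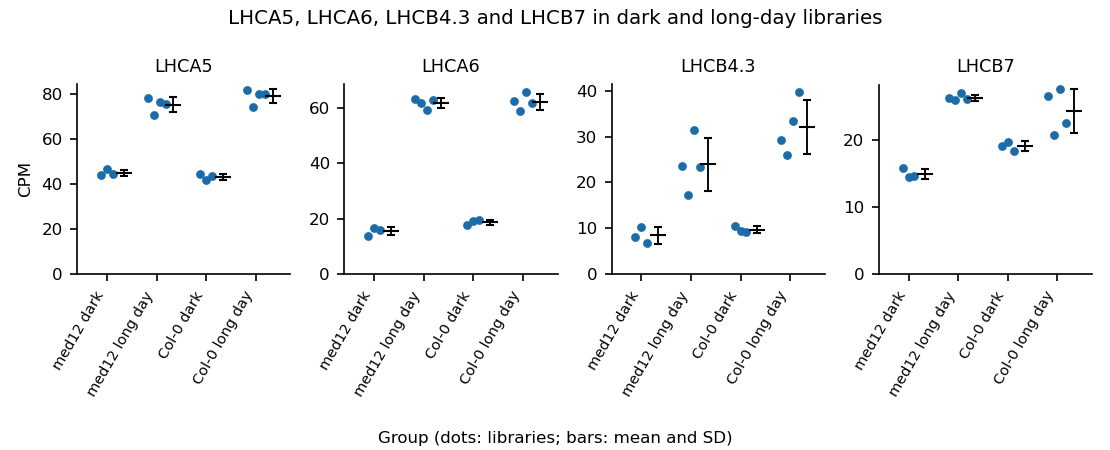
CPM (vertical) of LHCA5, LHCA6, LHCB4.3 and LHCB7 in *med12* and Col-0 libraries from the dark and from long days; dots are libraries, bars are mean and SD. LHCA6 lies at 13.8 to 19.5 CPM in the dark and at 58.8 to 65.7 CPM in long days in both genotypes.

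The difference between dark and long-day libraries was not the same in the 2 genotypes at the LHCB2 genes, though set and condition cannot be told apart. The interaction of genotype and condition (dark response in *med12* minus that in Col-0) was -2.02 for LHCB2.3 (adjusted p = 2.7e-10), -1.44 for LHCB2.1 (1.1e-09) and -1.47 for LHCB2.2 (2.7e-10). In *med12* alone the dark change of LHCB2.3 was 0.09 with a 95% interval of -0.02 to 0.19, that of LHCB2.1 was -0.01 (-0.11 to 0.08) and that of LHCB2.2 was -0.06 (-0.14 to 0.02). The 42 genes had 0 interactions called higher and 3 called lower, beside 2.91 and 6.15% of all features. Below 1.5-fold, the interaction was -0.47 for LHCB4.2 (adjusted p = 2.1e-06) and -0.48 for PSAD2 (4.5e-06), and after conversion for taken start positions both were called lower as well, at -0.69 and -0.65. All of these interactions rest on the long-day Col-0 libraries described above.

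In the dark, the LHCB2 levels of *med12* and Col-0 differed by little. LHCB2.3 had 95.8, 97.1 and 93.8 CPM in *med12* in the dark, against 95.6, 99.7 and 100 CPM in dark Col-0. The log2 fold change was -0.05 for LHCB2.3 (95% interval -0.11 to 0.02), -0.04 for LHCB2.1 (-0.11 to 0.02) and -0.003 for LHCB2.2 (-0.07 to 0.07). These intervals leave out a change of 1.5-fold in the counts in either direction, but rest on libraries that differ by less than sampling noise and may be too narrow. Summed LHCB2 counts per exonic base were 0.4076 to 0.4248 in Col-0 and 0.43 to 0.442 in *med12* in the dark. In the smaller *SDC:GFP* wild type libraries they were 0.4367 to 0.4509. The intervals are therefore for counts after duplicate removal, and a difference in RNA may appear in them only in part. None of the 42 genes was called (13.4% of all features were), and 11 were lower in *med12* at an adjusted p under 0.05, led by LHCB7 (-0.35) and LHCA6 (-0.28). The share of all features at that threshold is not given, so nothing is read from the 11. The median dark library held 6707479 counts in *med12*, against 6405653 in Col-0, and the part of depth was not tested. After 15 min of light, again none was called, where 14.2% of all features were. LHCB7 (-0.50, adjusted p = 3.1e-05), LHCB4.3 (-0.47, 0.0041) and LHCA6 (-0.43, 0.00036) were lower in *med12* and LHCB1.2 was higher (0.14), all under 1.5-fold.

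A light exposure of 15 min changed no gene of the 42 by the call in Col-0, where 2.88% of all features were called, nor in *med12*, where 1.77% were. At an adjusted p under 0.05 the count was 1 in Col-0 and 0 in *med12*, and at an unadjusted p under 0.05 it was 2 and 7. LHCB2.1 had 90.7, 90.2 and 94.8 CPM in Col-0 after light, against 82.3, 82 and 84.2 CPM in the dark (log2 fold change 0.14 ± 0.03, adjusted p = 0.032). In *med12* the change of LHCB2.1 was 0.11 (95% interval 0.05 to 0.18). The light response did not differ between the genotypes at any of the 42 by the call, where 0.505% of all features did. For genes near the limit on counts per base, such small changes would be understated.

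In *ddc*, which lacks most non-CG DNA methylation, 3 genes of the 42 were lower than in *SDC:GFP* wild type. LHCA6 had 54.8, 54.7, 54.7 and 61 CPM in *ddc*, against 119, 97.5, 105 and 109 CPM in *SDC:GFP* wild type (log2 fold change -0.93 ± 0.07, adjusted p = 1.8e-07). LHCB2.3 had 132, 123, 130 and 98.2 CPM in *ddc*, against 227, 208, 214 and 214 CPM in *SDC:GFP* wild type (-0.83 ± 0.07, 7.3e-07). LHCB4.3 had 26.4, 27.3, 24.8 and 29.2 CPM in *ddc*, against 45.7, 45.3, 50.9 and 56.4 CPM in *SDC:GFP* wild type (-0.88 ± 0.10, 6e-06). The groups did not overlap for any of the 3. LHCB2.1 (-0.43) and LHCB2.2 (-0.42) were lower in *ddc* at an adjusted p under 0.05 without reaching 1.5-fold. The 0 genes called higher and 3 called lower stand beside 12.4 and 14.8% of all features, and the median of the 42 was 0.06, against 0.01 for all features. The *ddc* libraries also had the lowest median depth of the 14 groups, 3157382.5 counts.

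In *ddc/med13*, LHCA6 and the LHCB2 genes were higher than in *ddc* at an adjusted p under 0.05, by less than 1.5-fold. LHCA6 had 80.9, 75.1, 67.5 and 66.4 CPM in *ddc/med13*, against 54.8, 54.7, 54.7 and 61 CPM in *ddc* (0.37 ± 0.08, adjusted p = 0.004). LHCB2.3 had 188, 166, 168 and 162 CPM in *ddc/med13*, against 132, 123, 130 and 98.2 CPM in *ddc* (0.51 ± 0.09, 0.0013), and was 0.65, past 1.5-fold, after conversion for taken start positions. Both genes lay between *ddc* and *SDC:GFP* wild type in every *ddc/med13* library. LHCB2.1 (0.27) and LHCB2.2 (0.31) were higher by less, and LHCB7 was lower (-0.41, adjusted p = 0.01). None of the 42 genes was called, where 15.0% of all features were, and their median was -0.13.

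In the *morc1* background the MED12 mutation gave 2 calls and the MED13 mutation none, each against its own *morc1* control. These controls share a genotype but differed in LHCB2.3, at 691 to 713 counts in replicates 1 to 4 and 317 to 375 in replicates 5 to 7. The 2 sets were fitted separately, so the 2 results do not compare the MED12 mutation with the MED13 mutation. LHCB2.3 had 112, 107 and 105 CPM in *morc1/med12*, against 76.6, 68.3 and 67 CPM in *morc1* (0.60 ± 0.06, adjusted p = 0.00058). LHCB4.3 had 19.8, 19.9 and 18.7 CPM in *morc1/med12*, against 32.3, 34 and 38.5 CPM in *morc1* (-0.86 ± 0.10, 0.0012). Neither gene overlapped between the groups. The value of LHCB2.3 lies just past 1.5-fold: it fell short of it, at 0.57 to 0.58, without *morc1/med12* replicate 1, *morc1* replicate 6 or *morc1* replicate 7. Tested against a 1.5-fold change rather than against no change (edgeR's glmTreat), neither gene was called, with an adjusted p of 1 for LHCB2.3 and 0.12 for LHCB4.3. Seed markers were also higher here, with 2 of the 4 tested called, at 53.5 to 343 CPM in *morc1/med12*, against 6.76 to 48.1 CPM in *morc1*, and their part was not tested. The 1 gene called higher and 1 called lower stand beside 1.74 and 3.75% of all features.

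In *morc1/med13* the LHCB2 genes stayed within narrow intervals: the log2 fold change against *morc1* was -0.04 for LHCB2.3 (95% interval -0.12 to 0.04), 0.03 for LHCB2.1 (-0.07 to 0.12) and 0.04 for LHCB2.2 (-0.06 to 0.14). Their summed counts per exonic base were high, at 0.4073 to 0.4225 in *morc1/med13* and 0.433 to 0.4464 in *morc1*. A difference in RNA may therefore appear in these counts only in part. LHCA6 had 103, 98.4, 87.9 and 83.7 CPM in *morc1/med13*, against 105, 110, 115 and 112 CPM in *morc1* (-0.25, adjusted p = 0.015). None of the 42 genes was called, where 18.9% of all features were. Between *morc1* and *SDC:GFP* wild type none was called either, where 2.57% of all features were, and LHCB4.3 alone had an adjusted p under 0.05 (-0.30, 0.035).

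**Figure D5:**
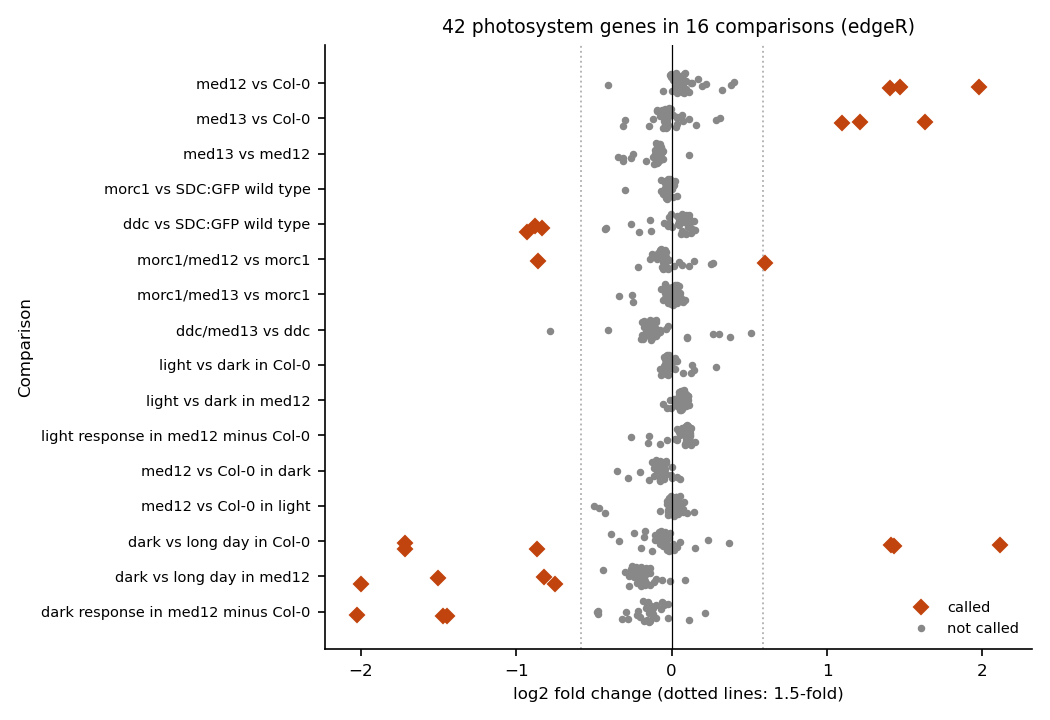
Log2 fold change (horizontal) of each of the 42 genes in 16 comparisons (rows); red diamonds were called by edgeR, grey dots were not, and dotted lines mark 1.5-fold. The diamonds right of the upper line are LHCB2.1, LHCB2.2 and LHCB2.3, and those at the left are LHCA5, LHCA6, LHCB4.3, LHCB7 and, in *ddc* and in the interaction, LHCB2 genes.

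LHCB4.3 was the most variable member within groups. It had 20.9, 42.2, 20.1 and 19.5 CPM in *med13*, against 29.3, 26, 33.3 and 39.7 CPM in Col-0 (-0.30, adjusted p = 0.34). In *ddc/med13* it had 12.5, 28.9, 10.2 and 10.2 CPM, against 26.4, 27.3, 24.8 and 29.2 CPM in *ddc* (-0.78 ± 0.29, 0.054). In both mutants replicate 2 stood above the other 3. Without *med13* replicate 2 the change was -0.66 (adjusted p = 0.0094) and without *ddc/med13* replicate 2 it was -1.28 (0.00018), so that both became calls. Markers of seeds, the storage protein and oil body genes CRU1, CRU2, CRU3, OLEO1, OLEO2 and SESA3, were highest in the same 2 libraries: they summed to 160, 795, 47.9 and 170 CPM in *med13*, against 2.6 to 10.3 CPM in Col-0, and to 91.8, 341, 9.56 and 233 CPM in *ddc/med13*, against 2.01 to 11.8 CPM in *ddc*. In *morc1/med13*, LHCB4.3 had 40.3, 33.9, 36.7 and 16.5 CPM where these markers summed to 1014, 1072, 1198 and 156 CPM. Other groups did not follow this order. In *med12* the markers summed to 469, 233, 350 and 53 CPM where LHCB4.3 had 23.5, 17.3, 31.5 and 23.4 CPM, and in *morc1/med12* they summed to 53.5, 103 and 343 CPM where LHCB4.3 had 19.8, 19.9 and 18.7 CPM. The part of the seed markers in the values of LHCB4.3 was not tested.

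The seed markers were higher in both single mutants in which the LHCB2 genes were higher, and not in dark Col-0. They summed to 53 to 469 CPM in *med12* and 47.9 to 795 CPM in *med13*, against 2.6 to 10.3 CPM in Col-0. LHCB2.3 varied by much less within these groups, at 81 to 100 CPM in *med12* and 68.1 to 72.2 CPM in *med13*. In the dark, *med12* had 193 to 375 CPM of the seed markers, against 1.07 to 2.53 CPM in dark Col-0, while the LHCB2 levels of the 2 genotypes stayed within the intervals given above. In Col-0, where the LHCB2 genes were higher in the dark, the markers summed to 1.07 to 2.53 CPM in the dark, against 2.6 to 10.3 CPM in long days, with 0 of 6 called. The part of the seed markers in the LHCB2 values was not tested.

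Other genes of photosynthesis, from lists of electron transport (14 genes), Calvin cycle (11) and plastid-encoded photosystem genes (6), gave no call in *med12* or *med13* against Col-0. Of all features, 7.66% were called higher and 5.12% lower in *med12*, and 7.16 and 6.27% in *med13*. In Col-0 the electron transport genes summed to 1420 to 1550 CPM and the Calvin cycle genes to 1570 to 1720 CPM. At such levels reads lost at taken start positions may hide differences, so nothing is read from the absence of calls. The list medians ran -0.16 to -0.07 for *med13* and -0.03 to 0.02 for *med12*, against 0.01 and -0.002 for all features. The largest change among the 31 was that of PGRL1B, which takes part in cyclic electron flow, higher by 0.41 in *med13* (adjusted p = 5.8e-05) and by 0.53 in *med12* (6.6e-06), under 1.5-fold and above each of the 42 apart from the LHCB2 genes. In Col-0 in the dark against long days, 3 of 14 electron transport genes and 2 of 11 Calvin cycle genes were called lower, beside 10.4% of all features, with FNR2, a ferredoxin-NADP reductase, at -0.96 and RBCS1B, a Rubisco small subunit gene, at -1.4. In *med12* the counts were the same, 3 and 2, beside 11.0%. The plastid-encoded genes went the other way, with 5 of 6 called higher in Col-0 (PSAA, 0.91, beside 10.0% of all features) and 2 of 6 in *med12* (beside 8.15%). In *ddc* 5 of 6 plastid-encoded genes were called higher than in *SDC:GFP* wild type, beside 12.4% of all features, led by PSBD at 0.90. As the libraries were made from polyadenylated RNA, plastid transcripts are captured only in part, and what share is captured was not measured.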

How the data were processed

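Whole-seedling RNA was sequenced as 50-base single-end reads from stranded, polyadenylated libraries. The authors used Trim Galore for trimming, STAR for alignment to TAIR10, Picard to drop duplicates and HTSeq 0.6.1 for counting by strand, and they deposited raw counts of 37338 genes and 31189 transposable elements. Trailing totals of reads that fell on no feature, present in 44 files (3.03 to 5.81% of reads), were left out. Groups came from the labels.

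Counts were tested with edgeR 4.0.16 in R 4.3.3 (filterByExpr by group, TMM, glmQLFit, glmQLFTest), and p-values were adjusted by Benjamini-Hochberg over every feature tested. A call needed more than 1.5-fold and adjusted p under 0.05. Col-0, *med12* and *med13* entered 1 fit, the 4 dark and light groups another, Col-0 and *med12* in long days and in the dark a separate fit, and each transgenic line was fitted with its control. CPM are counts scaled to the TMM-normalised library size. The SE is the log2 fold change divided by the square root of F, and intervals are at 95% from the t distribution with the fit's degrees of freedom. Scripts were tested on simulated data.

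Alternatives were DESeq2 1.42.0, RLE size factors, no filter on low counts, glmTreat, only the compared groups, a replicate block, summed LHCB copies, counts converted for taken start positions, and leaving out each library. The conversion replaced a count k on a gene of L exonic bases by -L times the natural log of 1 - k/L. Sequences, coordinates and exon lengths came from RefSeq's TAIR10.1 by locus tag, for 37050 genes. The 42 genes, the other lists and the motifs were chosen with earlier results of these data known, and the split at a 1.5-fold count range was chosen after seeing the counts. Every one of the 42 genes could be named. Values in every library are given for up to 3 called genes per comparison with the largest change, for the LHCB2 copies, and for genes that a left-out library or a result below 1.5-fold made worth showing, the last chosen after seeing their values.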

Additional observations from a re-analysis of the deposited data

Results flagged for a closer look

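In groups of 4, 10 of the 42 genes were checked for a library far from the other 3, and 9 of 80 groups had one. Chance sets 1 in about 20 apart in a single check. The 80 checks share libraries and are not independent, so no excess over chance is read from the 9. LHCB4.3 stood at 42.2 CPM in *med13* replicate 2 and at 28.9 CPM in *ddc/med13* replicate 2, above the rest of each group, and LHCA6 stood at 61 CPM in *ddc* replicate 4. In CPM, replicate 1 of *SDC:GFP* wild type was high for LHCB4.2 (279 CPM) and for PSBO2 (270 CPM), as was *morc1* replicate 3 for LHCB4.2 and PSBO2 (259 CPM each). LHCB4.2 was at 271 CPM in *morc1/med13* replicate 4, and PSBO2 at 135 CPM in *med13* replicate 1. Both genes are among the 35 with near-constant counts, whose CPM falls as the library grows, and each of these libraries was the smallest of its group. In counts, replicate 1 of *SDC:GFP* wild type was the lowest of its group for LHCB4.2 (856) and for PSBO2 (827).

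By the interaction test, the difference between dark and long-day libraries was not the same in *med12* and Col-0 at LHCB2.1 (-1.443), LHCB2.2 (-1.471) and LHCB2.3 (-2.024), on the log2 scale. Set and condition cannot be told apart there. The remaining differences are between log2 fold changes of opposite sign whose groups did not overlap in CPM. Some are small, and the interval given above for LHCB2.1 in the dark spans no change. In counts, dark groups overlapped: LHCB2.1 had 564, 550 and 569 in *med12*, against 551, 519 and 552 in Col-0. PSAD2 had 500, 493 and 504, against 503, 494 and 480. After light, LHCB2.1 was lower in *med12* in counts as well (554, 568 and 577, against 628, 629 and 600). Differences between the dark and long days are covered by the interaction test given in the report, and the others were not tested as differences. The MED12 allele was *cct-2* in Col-0 and a CRISPR deletion in *morc1*, so allele and background cannot be told apart there. MED12 mutation went with LHCB2.1 changes of 1.404 in Col-0 and 0.2557 in *morc1*, and of -0.04184 in the dark and -0.07252 after light. It went with LHCB4.2 changes of 0.379 in Col-0 and 0.1415 in *morc1*, and -0.09566 in the dark, and with PSAD2 changes of 0.4024 in long days and -0.07571 in the dark. MED13 mutation went with LHCA6 changes of 0.3745 in *ddc* (a CRISPR deletion), and of -0.311 in Col-0 and -0.2463 in *morc1* (both *gct-2*). Allele and background cannot be told apart in *ddc* either. For the dark against long days, LHCB4.2 changed by -0.1004 in *med12* and 0.3715 in Col-0, and PSAD2 by -0.244 in *med12* and 0.2315 in Col-0.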

How the results depend on the processing

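Of 1056 values recomputed under an alternative, 1034 counted as the same, 15 moved, 7 lost a call and 0 single-gene changes reversed. A single gene counted as the same when it kept its direction and call. A number of called genes did so within 1.5-fold, and a median when it shifted by less than the spread between libraries. A median near 0 could thus change sign, as after light in Col-0 (-0.0258, and up to 0.00102 with a library left out). RLE size factors (72 values) and fits of the compared groups only (40) changed none. The calls of the LHCB2 genes in *med12* and *med13*, in Col-0 in the dark and in the interaction held in all their alternatives, with LHCB2.3 at 1.92 to 2.24 in *med12* against Col-0. For *morc1/med12* against *morc1*, glmTreat left 0 genes higher and 0 lower, and leaving out a library left 0 to 1 higher. For *ddc/med13* against *ddc*, 1 gene, LHCB4.3, was called lower with DESeq2 (adjusted p = 0.043), with no filter (0.042) and without *ddc/med13* replicate 2, so that leaving out a library gave 0 to 1, and after conversion for taken start positions 1 gene, LHCB2.3, was called higher. For *med13* against Col-0, leaving out a library gave 0 to 1 genes lower, the 1 being LHCB4.3 without *med13* replicate 2. Conversion for taken start positions also gave a median of 0.00713 in *med13* against Col-0 (-0.03 as deposited), a median of -0.262 in *med12* in the dark against long days, and 5 genes with a lower dark response in *med12*. Ordered per kilobase rather than by CPM, 5 of the 10 highest genes in Col-0 stayed among the 10. For LHCB2.3, the sum of the LHCB2 copies gave -0.573 in *ddc* and 0.375 in *morc1/med12*, below 1.5-fold. Depth limits the lowest genes, such as LHCB4.3 at 33 to 284 counts, and the loss of reads at taken start positions limits the 35 near-constant ones. That loss may also limit the LHCB2 genes where their counts are high.

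Replicate numbers did not pair the libraries: same-numbered libraries of 2 groups correlated at -0.389 to 0.153 over 19 pairs of groups, and in 0 of the 19 did every library correlate best with its own number. With the replicate block, 66 of 67 values counted as the same, and the exception was 1 gene, LHCB4.3, called lower in *ddc/med13* (-0.86, adjusted p = 0.028). No paired analysis was possible because the replicate numbers of *morc1/med12* and its *morc1* control do not overlap; this holds for that comparison only.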
